A study of Mus musculus with 52 samples.

Results

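Long noncoding RNAs other than Tug1 were followed across every tissue of the series, namely Malat1, Neat1, Gas5, H19, Kcnq1ot1, Meg3, Rian, Mirg, Miat and Snhg11. They were picked by gene name from the table of testes and from the 7 tissues of a second table, and they are 10 of the 39144 genes that these tables list. The rule uses names and no measured value. Of the 80 possible entries (10 genes in 8 tissues) 78 were listed, and the missing ones were Miat and Mirg in liver.

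Long noncoding RNAs are transcripts longer than small RNAs that are not known to act through a protein they encode. Malat1 is a nuclear RNA found in splicing speckles, and Neat1 is the scaffold on which paraspeckles, another nuclear body, are built. Gas5 and Snhg11 carry small nucleolar RNAs (snoRNAs) in their transcripts, and Miat is a nuclear RNA best known from neurons. The others come from imprinted domains, where only the copy from 1 parent is transcribed. H19 and Meg3, Rian and Mirg are made from the maternal copy, and Kcnq1ot1 from the paternal copy, where it silences neighbouring genes in cis.

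Mutant mice lacked the Tug1 lncRNA locus, allele Tug1_tm1.1Vlcg, with a lacZ cassette in place of the gene body. Promoter and first exon of Tug1 were left in place. The animals and cultures of this series used here were male, on a C57BL/6J/129S6 background, and ages were not given in the labels. Wild-type and Tug1-/- groups had 4 testes libraries each, 3 libraries each in spleen, liver, heart, eyes and in cultured embryonic fibroblasts (MEFs), and 3 against 2 in prostate. MEFs were primary male cultures from embryos of the same litters, so each library is a culture and not a tissue. Tug1rescue testes (3 libraries) were also Tug1-/- and carried tg(Tug1) with CAGs-rtTA3, so that doxycycline in the diet induced a Tug1 isoform that lacks the 5′ end of the transcript. The labels describe the background of Tug1-/- and Tug1rescue testes with Neo and LacZ and that of wild-type testes with no Neo, while the study's methods describe a colony freed of the neomycin cassette. Whether the sequenced testes carried it is not clear from these sources. The other tissues of the series were labelled as free of it in both genotypes. Brain values came from libraries outside this series that the study analysed again, and the sex and background of those animals were not taken from any source used here.

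Each value below is the authors' mean of a group in TPM. TPM is a level corrected for gene length and scaled to the same total in every library. Libraries were made from polyA RNA, so transcripts or isoforms without a polyA tail are under-represented. The level also depends on the annotated length of the gene, which is long for Neat1 and Kcnq1ot1. Levels of different genes are set side by side within these limits. The tables hold no value of a single sample, and the columns of the authors' own comparisons were not used here. No spread, interval or test is therefore given for any comparison, and whether a difference is larger than the variation between mice was not tested. A ratio is log2 of the second mean over the first after adding 0.1 TPM to both. A gene was counted as past the limit when its ratio was beyond 1.5-fold, 0.58 on the log2 scale, and its mean over the pair of groups was at least 1 TPM.

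Tug1, the deleted gene, was at 10.1 to 57.6 TPM in the wild-type tissues and at 0.01 to 0.89 TPM in the Tug1-/- tissues, and at 1.60 TPM in Tug1rescue testes. Depth per library is unknown. In the table without testes, the authors' mean normalized counts summed to 17.57 × 10⁶ in brain and to between 38.67 × 10⁶ and 48.34 × 10⁶ in the other tissues. Over all genes of at least 1 TPM the median ratio lay between -0.11 and 0.10. It was -0.11 in eyes, 0.10 in heart and -0.11 in spleen, so the members' ratios in these tissues are also given with that shift subtracted.

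The genes lie at 6 chromosomal sites, with coordinates in GRCm38, the build of the files. Malat1 (ENSMUSG00000092341, chr19:5795690-5802672, minus strand) and Neat1 (ENSMUSG00000092274, chr19:5824708-5845478, minus strand) are neighbours 22.0 kb apart. Both are annotated as 1 exon block, of 6983 and 20771 bases. Meg3 (ENSMUSG00000021268, chr12:109541001-109571726), Rian (ENSMUSG00000097451, chr12:109603940-109661716) and Mirg (ENSMUSG00000097391, chr12:109729764-109749460) follow each other on the plus strand within 208.5 kb of the Dlk1-Dio3 imprinted domain. H19 (ENSMUSG00000000031, chr7:142575529-142578143, minus strand) and Kcnq1ot1 (ENSMUSG00000101609, chr7:143212155-143296549, minus strand) lie 634 kb apart in neighbouring imprinted domains. Gas5 (ENSMUSG00000053332, chr1:161034422-161038539, plus strand), Snhg11 (ENSMUSG00000044349, chr2:158375638-158386145, plus strand) and Miat (ENSMUSG00000097767, chr5:112213228-112229395, minus strand) stand alone. The files class Snhg11 as protein_coding and the other 9 as noncoding types.

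Some counts cannot be assigned to 1 strand, since the library kit does not mark strand. In a later release of the same annotation (GENCODE vM21), 24.3% of the exon bases of Miat are shared with the antisense gene Gm26953, 6.49% of those of Malat1 with Gm37376 and 6.79% of those of Meg3 with Gm26906. The exon model of Kcnq1ot1 was 93092 bases long in that release and shared 121 bases with exons of Kcnq1, the gene it runs against. The model is 1 block without introns. Unspliced Kcnq1 RNA that crosses it would therefore also be counted as Kcnq1ot1, which the shared exon bases do not show.

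Promoters are shown for the RNA at the head of the chromosome 12 array and for Gas5, since both carry the same palindrome. Sequences are from RefSeq (GRCm38.p6), from 250 bases before the transcription start to 50 after it, and 8 of the 10 genes had an entry, with 10 windows in all. Capitals mark TGACGTCA, the full cyclic AMP response element, which reads the same on both strands, and TATAAA, the TATA box, searched on both strands.
Meg3 promoter, chr12:109540746-109541045, plus strand: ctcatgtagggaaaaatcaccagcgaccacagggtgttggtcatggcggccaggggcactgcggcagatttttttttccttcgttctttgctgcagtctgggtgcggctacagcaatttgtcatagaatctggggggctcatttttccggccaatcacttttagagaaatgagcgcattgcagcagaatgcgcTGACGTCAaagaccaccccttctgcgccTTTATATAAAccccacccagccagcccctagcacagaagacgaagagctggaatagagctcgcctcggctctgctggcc
Gas5 promoter, chr1:161034916-161035215, plus strand: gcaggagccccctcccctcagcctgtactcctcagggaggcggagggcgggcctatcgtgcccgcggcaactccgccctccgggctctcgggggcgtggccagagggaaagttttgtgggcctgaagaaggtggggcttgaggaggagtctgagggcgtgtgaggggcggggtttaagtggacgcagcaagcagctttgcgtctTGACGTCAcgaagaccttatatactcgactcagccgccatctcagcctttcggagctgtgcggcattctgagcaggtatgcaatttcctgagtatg

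In the Meg3 window TGACGTCA begins 57 bases before the start, and the run of capitals that follows holds TATAAA on both strands in overlapping copies, beginning 29 and 25 bases before the start. In the Gas5 window TGACGTCA begins 46 bases before the start, and the transcript opens with a C followed by pyrimidines, the arrangement of 5′ terminal oligopyrimidine genes. Of all 32851 promoter windows of that length in the table, 1.79% held TGACGTCA and 13.6% held TATAAA. The other 8 windows of these genes held neither. Among them were windows of another start of Gas5 and another start of Meg3, and that other Gas5 start opens with a G. A match is a description of the letters and not a measured binding site.

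Imprinted members host small RNAs, which the polyA libraries did not measure. In all 37 mature miRNAs of the RefSeq table lie inside H19 (2), Meg3 (3), Rian (6) and Mirg (26), out of 1679 in the table. The hairpins of miR-675 in H19 and of miR-770 in Meg3 lie within an exon, as do 4 of the 14 hairpins with an entry in Mirg, and none of the 3 in Rian. Both products of H19, 1 from Meg3, 1 from Rian and 3 from Mirg are given with coordinates and the seed (bases 2 to 8) in capitals. Those of Mirg were taken because their seeds recur.
miR-675-5p, chr7:142577112-142577133, minus strand: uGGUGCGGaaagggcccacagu
miR-675-3p, chr7:142577078-142577099, minus strand: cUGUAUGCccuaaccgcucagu
miR-770-3p, chr12:109563744-109563765, plus strand: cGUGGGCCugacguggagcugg
miR-370-3p, chr12:109618305-109618326, plus strand: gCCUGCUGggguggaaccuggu
miR-453, chr12:109735669-109735692, plus strand: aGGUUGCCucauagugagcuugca
miR-496a-5p, chr12:109739132-109739152, plus strand: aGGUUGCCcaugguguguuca
miR-410-3p, chr12:109743764-109743784, plus strand: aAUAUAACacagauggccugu

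Only miR-453 and miR-496a-5p, both in Mirg, shared a seed (GGUUGCC) among the 37, and no other mature miRNA of the table had it. The seed of miR-410-3p was found in 3 mature miRNAs, more than any other seed of the 37, the others being miR-344d-3p and miR-344e-3p, which are not hosted by these genes. Each of the H19 products had a seed of its own within the set.

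The label of abundant RNAs held for most, not all, of the members. In wild-type tissues the highest level was that of H19 in MEFs, 1794 TPM, the rank of 59 among all 22253 genes listed there. Malat1, Neat1 and Gas5 were at 4.34 TPM or more in every tissue. Kcnq1ot1 was at most 1.23 TPM (testes) and Mirg at most 7.99 TPM (MEFs), so neither was abundant in these polyA libraries. Among genes not of the protein-coding type, a member was in the top 20 in brain (2 members, Meg3 and Malat1), eyes (1, Malat1) and MEFs (2, H19 and Malat1), and in no other tissue. Snhg11, classed as protein_coding, was left out of that count.

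**Figure D1:**
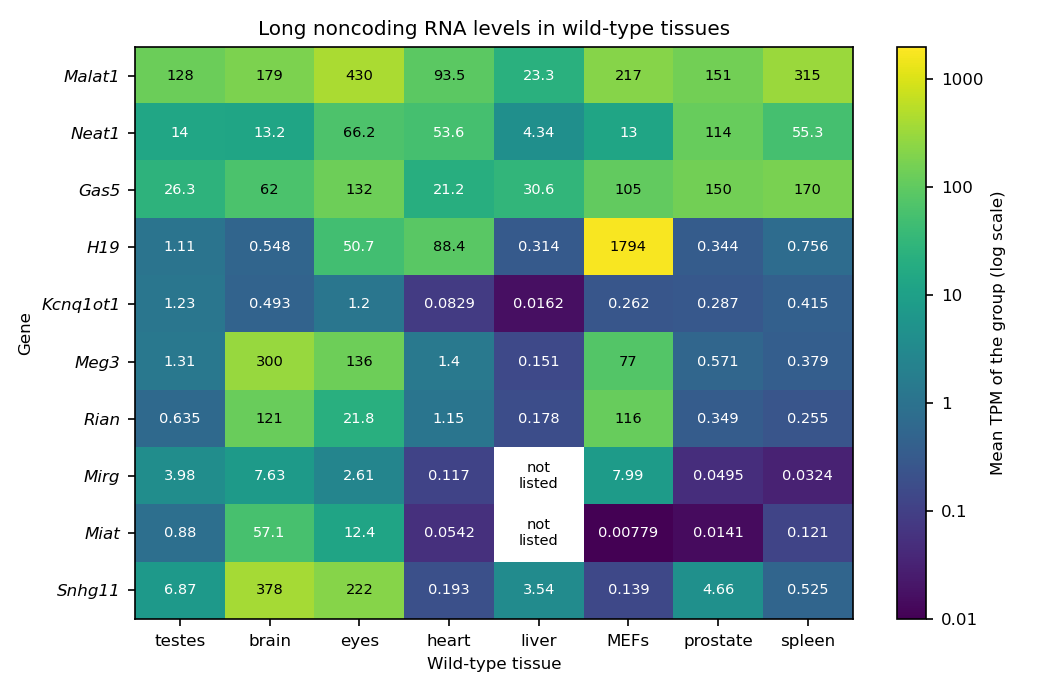
Mean TPM of the 10 long noncoding RNAs (rows) in 8 wild-type tissues (columns), with colour on a log scale and the authors' group mean printed in each cell. Malat1, Neat1 and Gas5 fill their rows, whereas H19, Meg3, Rian, Miat and Snhg11 are high in a few tissues, with H19 at 1794 TPM in MEFs.

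Malat1 and Gas5 were present everywhere but not evenly. Malat1 was highest in eyes at 429.9 TPM, followed by spleen at 315, MEFs at 217, brain at 179, prostate at 151, testes at 128, heart at 93.5 and liver at 23.3 TPM. The span from eyes to liver was 18.5-fold. Gas5, whose snoRNAs guide ribosomal RNA methylation, spanned 8.03-fold, the narrowest of the 10, from 170.4 TPM in spleen to 21.2 TPM in heart. Between them lay prostate at 150.3, eyes at 132, MEFs at 105, brain at 62.0, liver at 30.6 and testes at 26.3 TPM. Neat1 was in another order, with 114 TPM in prostate, 66.2 in eyes, 55.3 in spleen, 53.6 in heart, 13.96 in testes, 13.2 in brain, 13.0 in MEFs and 4.34 TPM in liver. Liver was thus the lowest tissue for the neighbours Malat1 and Neat1, while the highest differed. Which neighbours in these orders differ beyond the spread of samples cannot be told from group means.

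Meg3 and Rian, maternal RNAs of chromosome 12, were concentrated in brain, eyes and MEFs, and Mirg in the same tissues and testes. Meg3 was at 300.0 TPM in brain, 136 in eyes and 77.0 in MEFs, at 1.40 in heart and 1.31 in testes, and under 1 TPM in prostate (0.57), spleen (0.38) and liver (0.15). Rian was at 121 TPM in brain, 116 in MEFs, 21.8 in eyes and 1.15 in heart, and under 1 TPM in testes (0.63), prostate (0.35), spleen (0.26) and liver (0.18). Both were therefore high in the same 3 tissues. Mirg was at 7.99 TPM in MEFs, 7.63 in brain, 3.98 in testes and 2.61 in eyes, and at 0.12 TPM or less in heart, prostate and spleen. Over the 8 wild-type means the log2 levels of Meg3 and Rian had a Pearson correlation of 0.97, the highest of any pair of the 8 members listed in every tissue.

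The proportions within this array were not fixed. Rian stood at 0.40 of the level of Meg3 in brain, 0.16 in eyes, 0.83 in heart and 1.502 in MEFs. Mirg stood at 0.03 of Meg3 in brain, 0.02 in eyes and 0.10 in MEFs. In testes the order was inverted, with Mirg at 3.03 times the level of Meg3.

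**Figure D2:**
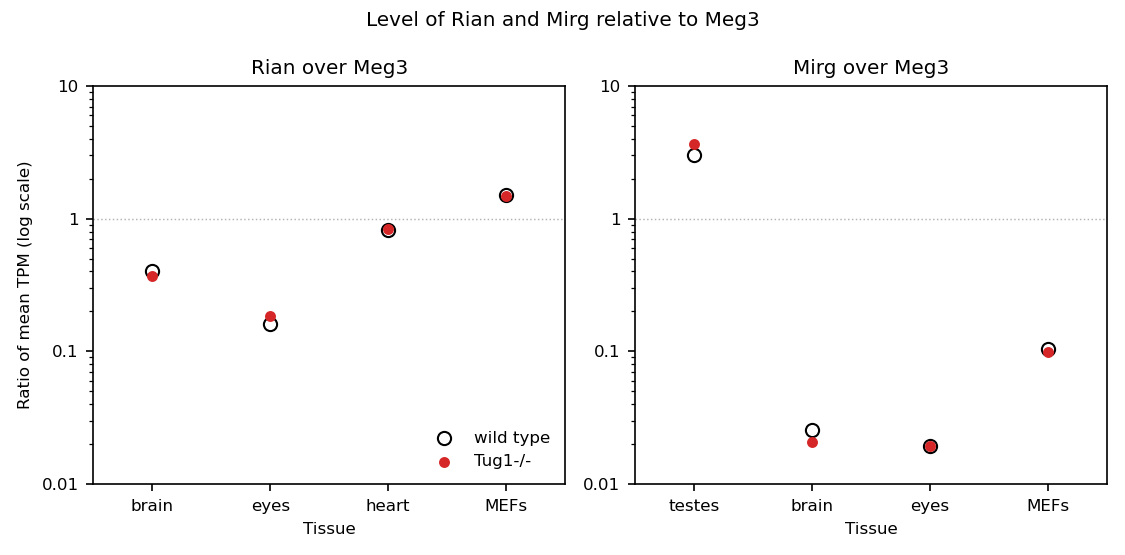
Ratio of mean TPM of Rian to Meg3 (left) and of Mirg to Meg3 (right) on a log scale, in the tissues where both genes had at least 1 TPM, with open circles for wild type and red points for Tug1-/-. The ratios differ widely between tissues, from 0.02 in eyes to 3.03 in testes for Mirg, while the ratios of the genotypes within a tissue differ less, at most from 3.03 to 3.64 and from 0.025 to 0.021.

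H19 was high in 3 of the 8 tissues. It was at 1794 TPM in MEFs, 88.4 in heart, 50.7 in eyes and 1.11 in testes, and under 1 TPM in spleen (0.76), brain (0.55), prostate (0.34) and liver (0.31). Kcnq1ot1 was at 1.23 TPM in testes, 1.20 in eyes, 0.49 in brain, 0.41 in spleen, 0.29 in prostate, 0.26 in MEFs, 0.08 in heart and 0.02 in liver. Its gene model is long, and in eyes the authors' mean normalized count behind 1.20 TPM was 1210.

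Miat and Snhg11 were highest in brain, then eyes. Snhg11 was at 378 TPM in brain, the rank of 312 among all genes there, and at 222 TPM in eyes. It was at 6.87 TPM in testes, 4.66 in prostate, 3.54 in liver, and under 1 TPM in spleen (0.53), heart (0.19) and MEFs (0.14). Miat was at 57.1 TPM in brain and 12.4 in eyes, at 0.88 in testes, and at 0.12 TPM or less in spleen, heart, prostate and MEFs. The neuron markers fixed for the label check (12 genes, Snap25 and Syt1 among them) summed to 5710 TPM in brain and 2339 TPM in eyes, and to 201 TPM or less in the other wild-type tissues.

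For 8 members listed in all tissues, the gene outside the set with the most similar order was found among 16348 genes, by the correlation of log2 levels over the 8 wild-type means. It was Edil3 for Meg3 (r = 0.995), Samd5 for Rian (r = 0.988), Rufy3 for Snhg11 (r = 0.989), 4732416N19Rik for Kcnq1ot1 (r = 0.988), Gm38057 for Malat1 (r = 0.98), Txndc11 for Gas5 (r = 0.979), Pdlim3 for Neat1 (r = 0.958) and Tead1 for H19 (r = 0.955). These are the highest of many correlations over only 8 means and are a description. Miat and Mirg, not listed in liver, were left out. Edil3 was at 64.4 TPM in brain, 27.0 in eyes and 10.6 in MEFs, and Tead1 at 133 TPM in MEFs and 27.4 in heart.

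The first question was whether deletion of Tug1 came with other levels of these RNAs. Of the 78 entries, 50 had a mean of at least 1 TPM, and 4 of the 50 (8%) were past the limit. All 4 were lower in Tug1-/-: H19 in MEFs, Malat1 in prostate, and Snhg11 in liver and prostate. None was higher. In 32 of the 50 the ratio was within 0.2 of 0 on the log2 scale.

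Each tissue had 0 to 2 members past the limit, set here beside the share of all genes of at least 1 TPM. In testes 5.24% of all genes were past the limit and 0 of 8 members, in brain 4.72% and 0 of 8, in eyes 6.66% and 0 of 10, and in heart 3.49% and 0 of 6. In liver the share was 5.22% of all genes against 1 of 4 members, in MEFs 6.43% against 1 of 7, in prostate 6.72% against 2 of 4, and in spleen 9.36% against 0 of 3. The 8% of the members' entries lay within the range of these shares. Genes of the long noncoding types passed it in 3.17% (testes) to 16.6% (spleen) of cases. The members past the limit in prostate are 2 of only 4, and the Tug1-/- mean there rests on 2 libraries.

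**Figure D3:**
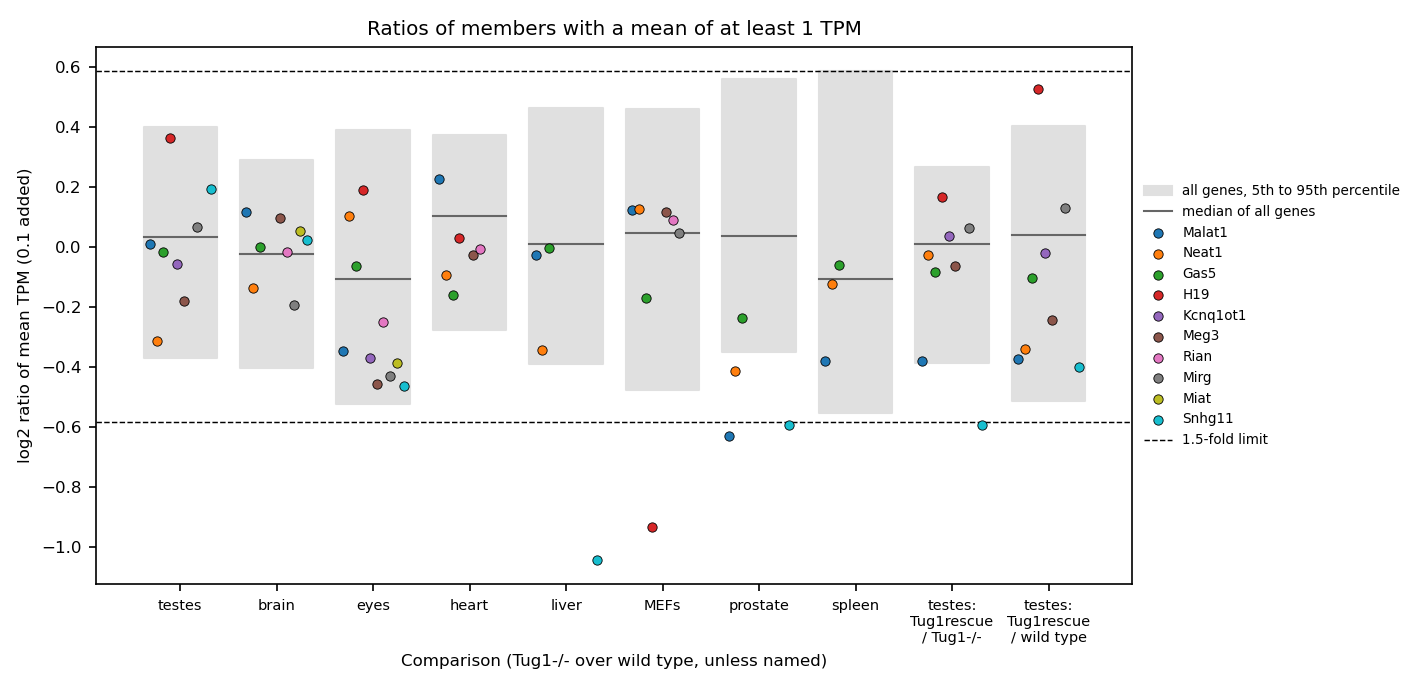
log2 ratio of mean TPM for members with a mean of at least 1 TPM, in 8 comparisons of Tug1-/- with wild type and in both comparisons of Tug1rescue testes, with grey bars from the 5th to the 95th percentile of all genes and dashed lines at 1.5-fold. Below the grey bars lie Snhg11 in liver (-1.04), H19 in MEFs (-0.93), Malat1 (-0.63), Snhg11 (-0.59) and Neat1 (-0.42) in prostate, and Snhg11 in Tug1rescue against Tug1-/- (-0.59), and above them lies H19 in Tug1rescue against wild type (0.53).

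**Figure D4:**
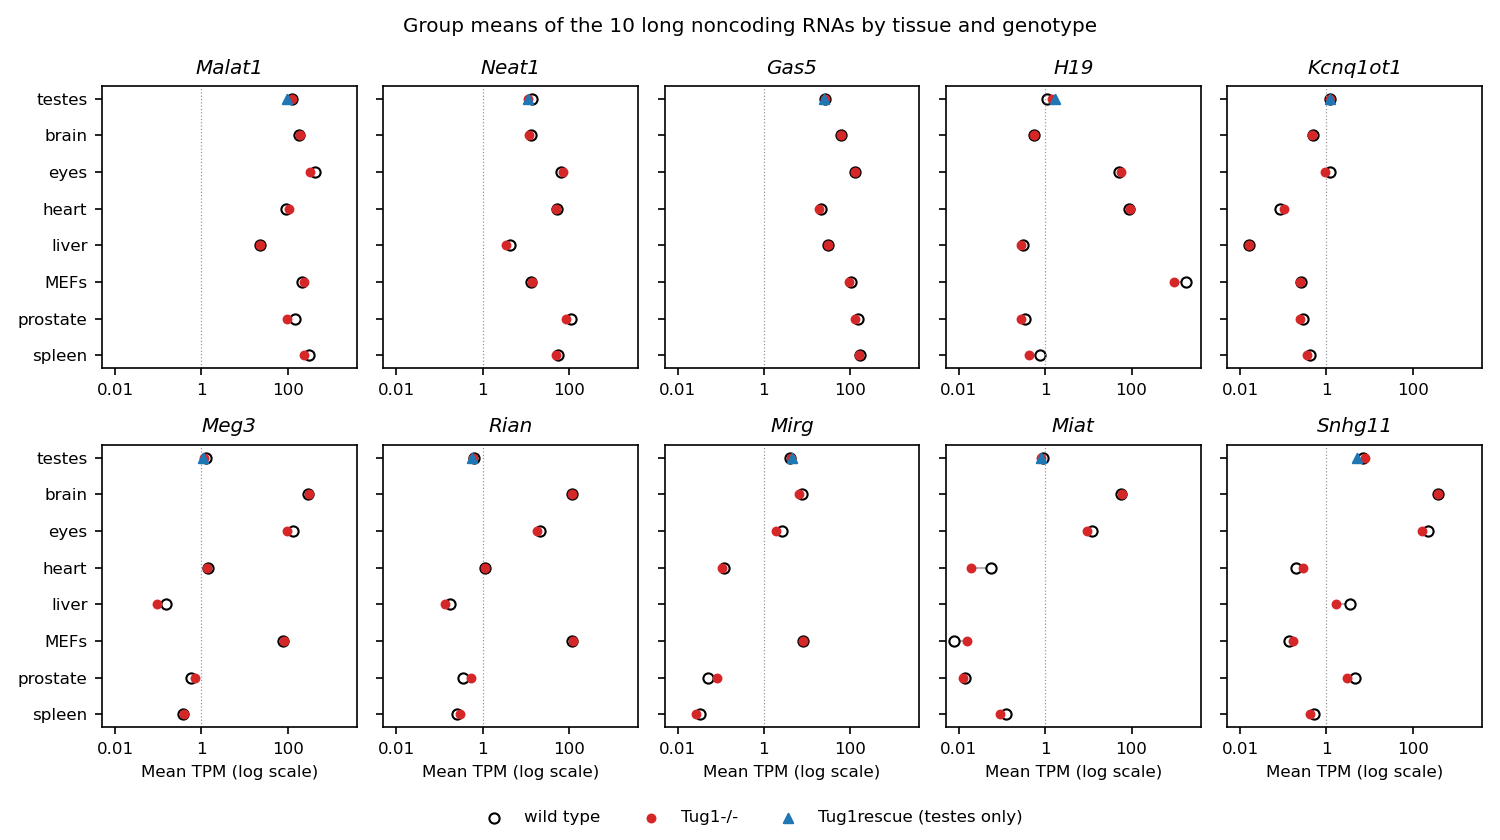
Mean TPM on a log scale for each of the 10 RNAs in every tissue that lists it, with open circles for wild type, red points for Tug1-/- and blue triangles for Tug1rescue testes. Points of a tissue nearly coincide for most genes, while the distance between tissues spans several powers of 10 for H19, Meg3, Rian, Miat and Snhg11.

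H19, which yields the miR-675 pair shown above, had the largest difference in TPM. In MEFs it was at 1794 TPM in wild type against 939.9 TPM in Tug1-/-, 1.91-fold lower (log2 ratio -0.93), with a mean normalized count of 34850 behind it. In the other tissues with H19 RNA the means were close: 88.4 and 90.1 TPM in heart (ratio 0.03, or -0.08 with the shift subtracted), 50.7 and 57.8 TPM in eyes (0.19, or 0.29), and 1.11 and 1.46 TPM in testes (0.36). The remaining tissues had under 1 TPM. Among them spleen had 0.76 and 0.42 TPM (ratio -0.71, or -0.60 with the shift subtracted), on a mean normalized count of 21.4.

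Other imprinted genes of MEFs were described from a list of 19 that are often expressed together with H19. Of 17 with at least 1 TPM, 4 were past the limit, all lower in Tug1-/-, and 13 lay within it. The 4 were Mest (57.7 and 32.9 TPM), Peg3 (210.3 and 122 TPM), Zim1 (46.3 and 29.3 TPM) and Cdkn1c (35.4 and 23.4 TPM), a cell cycle inhibitor. Igf2, the growth factor gene that shares its enhancers with H19, was at 39.97 and 30.11 TPM (ratio -0.41). The median of the list was -0.15, against 0.05 over all genes. Not all imprinted genes lay on that side: Dlk1, a Notch-like ligand, was at 15.1 and 20.1 TPM (0.41), and Meg3, Rian and Mirg were at 0.12, 0.09 and 0.05. Among the same cultures the 10 genes of the fibroblast and matrix list had a median of -0.22 with none past the limit, and the 6 genes of dividing cells had a median of 0.25, also with none. Of 8 macrophage markers of at least 1 TPM there, 2 were past the limit and higher and 1 lower, with a median of -0.39 (sum 626 and 688 TPM), and of 4 Sertoli list genes 2 were past it and lower (sum 30.06 and 22.8 TPM). Of the endothelium list 1 of 5 was past it and higher, and of the cardiomyocyte list 1 of 3 was lower. Their part in the H19 value was not tested.

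**Figure D5:**
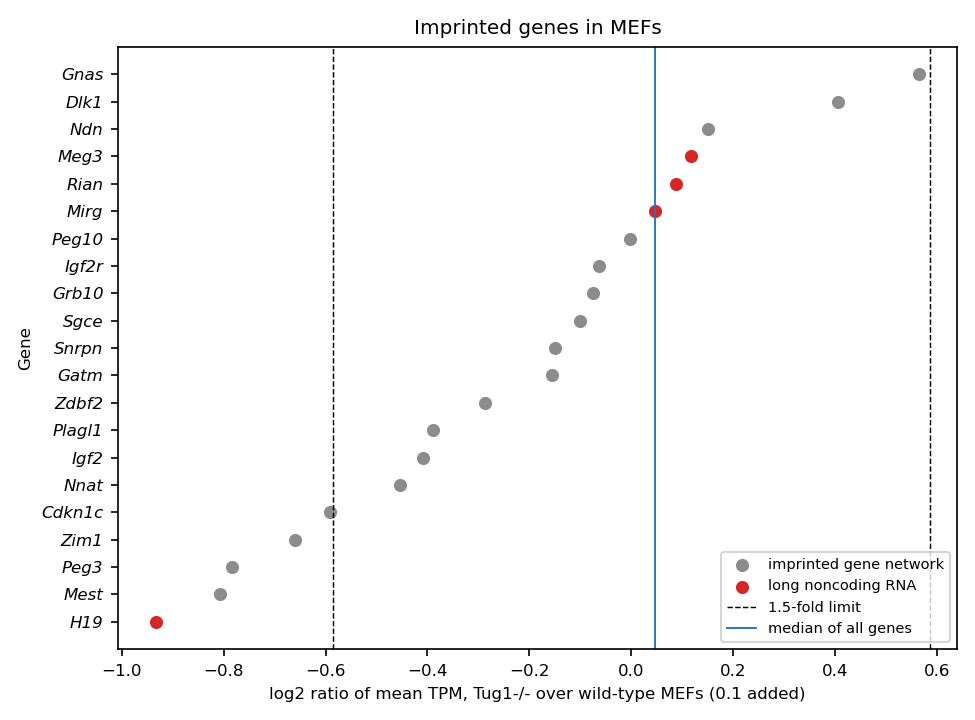
log2 ratio of mean TPM, Tug1-/- over wild-type MEFs, for 17 genes of the imprinted gene list (grey) and for H19, Meg3, Rian and Mirg (red), with dashed lines at 1.5-fold and a blue line at the median of all genes. H19 lies lowest at -0.93, next to Mest and Peg3, while Meg3, Rian and Mirg lie at or just above the blue line.

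In other tissues few genes of that list were past the limit. There were 2 of 10 in prostate (Nnat and Ndn, higher in Tug1-/-), 1 of 13 in heart (Nnat, lower), 2 of 11 in spleen (Gatm higher, Nnat lower), and none in testes, brain, eyes or liver. Genes flanking H19 and Kcnq1ot1 were a second list of 21. In eyes 3 of its 17 genes of at least 1 TPM were higher, among them Tnnt3, the fast skeletal muscle troponin T gene downstream of H19, at 1502 and 2627 TPM, Nctc1 at 7.08 and 12.6 TPM, and Th at 3.52 and 5.35 TPM. Tnnt3 was past the limit and lower in heart (31.5 and 0.76 TPM) and spleen (4.41 and 2.71 TPM). Skeletal muscle markers, a list that holds Tnnt3 itself, differed in the same direction, with 9 of 10 past the limit and higher in Tug1-/- eyes (sum 7903 and 13850 TPM) and 8 of 10 lower in Tug1-/- heart. The summed level of the list in heart was nonetheless 1335 and 1383 TPM, most of it Ckm, the muscle creatine kinase gene that heart also expresses, at 1005 and 1199 TPM. B cell markers in heart were past the limit and lower in Tug1-/- in 6 of 6 (median -1.11, sum 106 and 51.6 TPM). There 1 of 9 macrophage markers was past it and higher (median 0.43), and 1 of 6 Sertoli list genes was lower. H19 differed by less than 1.5-fold in eyes and heart. The part of muscle and of these other markers in its values was not tested.

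Kcnq1ot1 passed 1 TPM in testes and eyes only. It was at 1.23 and 1.18 TPM in testes (ratio -0.06) and at 1.20 and 0.90 TPM in eyes (-0.37, or -0.27 with the shift subtracted). Kcnq1, which it overlaps, was at 2.38 and 1.52 TPM in testes (-0.62) and 1.69 and 4.78 TPM in prostate (1.45), both past the limit. Tnfrsf23 was the other gene of the list past it in prostate, at 1.52 and 0.97 TPM. Cdkn1c, a gene it silences in cis, was past the limit in MEFs only, where Kcnq1ot1 itself was at 0.26 and 0.24 TPM.

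The chromosome 12 array differed little between genotypes. Meg3 was at 300.0 and 321 TPM in brain (ratio 0.10), 77.0 and 83.5 in MEFs (0.12), 1.40 and 1.37 in heart (-0.03, or -0.13 with the shift subtracted) and 1.31 and 1.15 in testes (-0.18). Rian was at 121 and 119 TPM in brain (-0.02), 116 and 123 in MEFs (0.09) and 1.15 in both genotypes in heart (-0.01, or -0.11). Mirg was at 7.99 and 8.26 TPM in MEFs (0.05), 7.63 and 6.65 in brain (-0.19) and 3.98 and 4.17 in testes (0.07). Eyes stood apart, with all 3 lower in Tug1-/-: Meg3 at 136 and 98.9 TPM (-0.46), Mirg at 2.61 and 1.91 TPM (-0.43) and Rian at 21.8 and 18.3 TPM (-0.25). With the shift in eyes subtracted these were -0.35, -0.33 and -0.15. In Tug1-/- Rian was at 0.37 of Meg3 in brain, 0.18 in eyes, 0.84 in heart and 1.47 in MEFs, against 0.40, 0.16, 0.83 and 1.502 in wild type. Mirg was at 3.64 times Meg3 in Tug1-/- testes against 3.03 in wild type, 0.021 against 0.025 in brain, 0.019 in both genotypes in eyes, and 0.099 against 0.10 in MEFs.

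Of 11 genes of the surrounding Dlk1-Dio3 region, 6 to 10 had at least 1 TPM in a tissue, and none of these was past the limit in brain, eyes, heart, liver, MEFs, prostate or spleen. In testes 1 of 7 was, Wars, which encodes the tryptophan tRNA synthetase, at 53.3 and 32.7 TPM (ratio -0.70). Dio3, the thyroid hormone-inactivating deiodinase, was at 2.06 and 1.52 TPM in MEFs (-0.41) and 3.64 and 4.86 TPM in eyes (0.41).

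Snhg11 had the largest ratio of any member. In liver it was at 3.54 and 1.67 TPM, 2.06-fold lower in Tug1-/- (log2 ratio -1.04), and in prostate at 4.66 and 3.05 TPM, 1.51-fold lower (-0.59), barely past the limit. Mean normalized counts behind these were 399 and 445. In its main tissue the means were alike, 378 and 383 TPM in brain (0.02). In eyes it was at 222 and 161 TPM (-0.46, or -0.36 with the shift subtracted), and in testes at 6.87 and 7.86 TPM (0.19). Miat was at 57.1 and 59.3 TPM in brain (0.05) and at 12.4 and 9.47 TPM in eyes (-0.39, or -0.28). Liver had 1 neuron marker of at least 1 TPM (ratio -0.10) and prostate 2 (median 0.20). Macrophage markers in liver summed to 312 and 471 TPM, with 2 of 9 past the limit and higher in Tug1-/-, as were 2 of 8 fibroblast and matrix genes (sum 90.5 and 107 TPM), 1 of 2 B cell markers (sum 14.3 and 22.2 TPM) and 1 of 2 genes of the Leydig list (sum 8.48 and 35.9 TPM). The 6 hepatocyte genes had a median of 0.00 with none past it. The part of these in the Snhg11 value was not tested. Of 11 genes that flank Gas5, Miat and Snhg11, Cryba4 (22.6 and 3.25 TPM) and Tpst2 (18.6 and 6.55 TPM), both near Miat, were past the limit and lower in testes, where Miat was at 0.88 and 0.81 TPM. Adig, near Snhg11, was past it and higher in eyes (5.06 and 16.8 TPM) and prostate (3.05 and 5.34 TPM).

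In eyes all 10 members had at least 1 TPM, and 8 of them were lower in Tug1-/-, none past the limit, with a median of -0.36 against -0.11 over all genes and -0.22 over long noncoding types. The 2 others were H19 (0.19) and Neat1 (0.10), and with the shift subtracted Gas5 also lay above 0, leaving 7 below. In liver, prostate and spleen all members of at least 1 TPM (4, 4 and 3) lay below 0, and 2 of the 3 in spleen with the shift subtracted. In eyes neuron markers had a median of -0.20 before the shift was subtracted (12 genes, sum 2339 and 2054 TPM) and photoreceptor markers of -0.19 (10 genes, sum 33940 and 29940 TPM), while 9 skeletal muscle markers and 4 erythroid markers were past the limit and higher. The 9 macrophage markers there had a median of 0.39 with 1 past it, and 2 of 5 cardiomyocyte genes and 1 gene each of the hepatocyte and Leydig lists were also past it and higher. In bulk tissue fewer cells of a type and less RNA per cell cannot be told apart, and the part of tissue makeup in these ratios was not tested.

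Malat1 and Neat1 were compared side by side. In prostate Malat1 was at 151 TPM in wild type against 97.3 TPM in Tug1-/-, 1.55-fold lower (log2 ratio -0.63), and Neat1 at 114 and 85.7 TPM (-0.42). Gas5 was also lower there, at 150.3 and 128 TPM (-0.24), so that all 4 members of at least 1 TPM lay below 0 in prostate. Over all genes of that tissue the median was 0.04 and 706 genes were past the limit upward against 309 downward. Macrophage markers were higher in Tug1-/- prostate, 7 of 9 past the limit (sum 280.1 and 441.9 TPM). So were 3 of 4 erythroid markers (sum 149 and 272 TPM) and 2 of 10 fibroblast and matrix genes, all 10 of which lay above 0 (median 0.36, sum 345 and 455 TPM). The 6 genes of the prostate epithelium itself had 1 past the limit in each direction (sum 88160 and 80530 TPM). Of 3 B cell markers 1 was past it and higher (sum 28.9 and 133 TPM), as was 1 gene each of the hepatocyte (sum 8.22 and 62.8 TPM) and Sertoli lists (sum 65.6 and 166 TPM), and 1 of the cardiomyocyte list was lower. Their part in the values of Malat1, Neat1, Gas5 and Snhg11 was not tested.

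Elsewhere both stayed within the limit. Malat1 was at 429.9 and 338 TPM in eyes (-0.35, or -0.24 with the shift subtracted), 315 and 242 in spleen (-0.38, or -0.27), 217 and 237 in MEFs (0.12), 179 and 194 in brain (0.12), 128 and 129 in testes (0.01), 93.5 and 109 in heart (0.23, or 0.12) and 23.3 and 22.9 in liver (-0.03). Neat1 was at 66.2 and 71.0 TPM in eyes (0.10, or 0.21), 55.3 and 50.8 in spleen (-0.12, or -0.015), 53.6 and 50.2 in heart (-0.09, or -0.20), 13.96 and 11.21 in testes (-0.31), 13.2 and 12.0 in brain (-0.14), 13.0 and 14.2 in MEFs (0.13) and 4.34 and 3.40 in liver (-0.34). Before any shift was subtracted the neighbours lay on opposite sides of 0 in eyes, brain, heart and testes, and on the same side in the other 4 tissues. Spleen had 6 of 6 erythroid markers past the limit and higher in Tug1-/-, with sums of 20760 and 37650 TPM. Genes of dividing cells were past it and higher in 5 of 6 (sum 310 and 559 TPM) and hepatocyte genes lower in 4 of 4 (sum 24.9 and 1.69 TPM), and 1 gene of the prostate epithelium list was higher (list sum 0.60 and 69.5 TPM). The 6 B cell markers had a median of -0.40 before the shift was subtracted, with none past the limit. Of them 1 lay above 0, and their sum was 17580 and 21750 TPM. Single genes of the neuron, skeletal muscle, fibroblast and Leydig lists were past it and lower, and of the macrophage and endothelium lists higher. Their part in the spleen values was not tested.

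The proteins that assemble on Neat1 were nearly all within the limit. Of 12 paraspeckle proteins, all of at least 1 TPM everywhere, 2 were past it in liver and higher in Tug1-/-: Rbm14 at 5.46 and 8.80 TPM (0.68) and Sfpq, a core protein of the body, at 20.1 and 31.8 TPM (0.65). None was past it in the other 7 tissues. Of 8 genes that flank Malat1 and Neat1, only Ltbp3 in testes was past it, at 7.89 and 4.77 TPM (-0.71).

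Gas5 varied least between genotypes among the members present in every tissue. It was at 170.4 and 163 TPM in spleen (-0.06, or 0.05 with the shift subtracted), 132 and 126 in eyes (-0.06, or 0.04), 105 and 93.5 in MEFs (-0.17), 62.0 in both genotypes in brain, 30.6 and 30.5 in liver, 26.3 and 26.0 in testes (-0.02) and 21.2 and 18.97 in heart (-0.16, or -0.26). Its ratios ranged from -0.24 to 0.00 over the 8 tissues before any shift was subtracted. Other snoRNA hosts were a list of 19 genes. In MEFs 2 of 16 were past the limit and higher, Snhg7 at 1.66 and 3.07 TPM and Dancr at 0.91 and 1.43 TPM, and the list's median of 0.36 there stood against 0.05 over all genes and -0.17 for Gas5. Snhg7 and Snhg9 were past it and lower in eyes and in prostate. Snhg7 was past it and higher in spleen, where Snhg3 was lower, and Snhg3 was higher in brain.

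Of a list of 26 further long noncoding RNAs, Xist and Firre among them, few were past the limit. Between 5 and 15 had at least 1 TPM in a tissue. Past the limit were Mir17hg in MEFs, at 4.10 and 7.20 TPM, and Dnm3os in spleen, at 1.09 and 1.76 TPM, both higher in Tug1-/-, and none in the other 6 tissues.

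The second question was whether these RNAs differed when Tug1 RNA was supplied from a transgene. Tug1 was at 40.1 TPM in wild type, 0.89 in Tug1-/- and 1.6 in Tug1rescue testes. The Tug1rescue animals also carried CAGs-rtTA3 and the transgene insertion, and the study describes them as fed doxycycline. These cannot be told apart here from the supplied RNA. Both comparisons of Tug1rescue testes use the same 3 libraries, and they share groups with the comparison of Tug1-/- and wild-type testes, so their values are given side by side only. Past the limit against Tug1-/- were 3.60% of all genes and 1 of 8 members, and against wild type 6.60% of all genes and 0 of 8 members. The 1 member was Snhg11, at 6.87 TPM in wild type, 7.86 in Tug1-/- and 5.18 in Tug1rescue testes, 1.51-fold lower than in Tug1-/- (log2 ratio -0.59, and -0.40 against wild type).

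Malat1 was at 128 TPM in wild type, 129 in Tug1-/- and 98.6 in Tug1rescue testes (-0.38 against Tug1-/-). Neat1 was at 13.96, 11.21 and 11.01 TPM in the same order, Gas5 at 26.3, 26.0 and 24.5, and Mirg at 3.98, 4.17 and 4.36 TPM. H19 was at 1.11, 1.46 and 1.65 TPM, a ratio of 0.53 for Tug1rescue against wild type. Kcnq1ot1 was at 1.23, 1.18 and 1.21 TPM and Meg3 at 1.31, 1.15 and 1.09 TPM. Rian (0.63, 0.61 and 0.58 TPM) and Miat (0.88, 0.81 and 0.81 TPM) were under 1 TPM in every group. Malat1 and Snhg11 had their lowest mean in Tug1rescue testes, as did Neat1, Gas5, Meg3 and Rian by smaller margins from Tug1-/-. Of the lists, Wars (26.96 TPM) and Slc25a29 (2.16 TPM) of the Dlk1-Dio3 region, Kcnq1, Cryba4, Tpst2, Ltbp3 and Firre were past the limit and lower in Tug1rescue than in wild type.

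Testes groups also differed in markers of other tissue. Skeletal muscle markers summed to 15.7 TPM in wild type, 68.5 in Tug1-/- and 21.0 in Tug1rescue testes, and 8 of the 9 of at least 1 TPM were past the limit and higher in Tug1-/-. Tnnt3, the neighbour of H19, was at 0.11, 9.49 and 0.09 TPM. Of 8 Leydig cell markers 3 were past the limit and higher in Tug1-/- (sum 720.0 and 1070 TPM). In Tug1rescue their sum was 903 TPM, with 2 of 8 higher than in wild type and 2 of 8 lower than in Tug1-/-. Of 4 erythroid markers 3 were past it and lower in Tug1-/- (median -0.85, sum 44.7 and 38.8 TPM), and 3 also in Tug1rescue against wild type (-0.76). Macrophage markers summed to 121.5 TPM in wild type, 162.5 in Tug1-/- and 162.7 in Tug1rescue testes. Against wild type 1 of 9 was past the limit and higher in Tug1-/- (median 0.40) and 4 of 9 in Tug1rescue (0.46). Sertoli cell genes summed to 952, 944 and 976 TPM in the same order. Of these 0 of 8 were past it in Tug1-/- (median 0.35), and 3 of 8 were past it and higher in Tug1rescue (0.48). The late spermatid markers, by contrast, had none past it (median -0.09). What part these had in the members' values was not tested.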

How the data were processed

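Libraries were made from polyA RNA with a kit that does not mark strand, and sequenced by the authors. Per the labels and the study's methods, the authors used CASAVA 1.8.2 for base calls, mapped reads to GRCm38 with STAR and GENCODE vM16, assigned unique alignments to genes with featureCounts, and dropped a gene when no replicate reached 3 reads. The authors averaged TPM over the libraries of a group, and the deposited tables used here give levels only as these means, in TPM for testes. For the other 7 tissues the authors deposited the same TPM means as a signal column with the tissues stacked, beside the mean count over both genotypes after division by DESeq2 size factors. Further columns hold the authors' fold changes, errors, statistics, p-values and significance marks, and were not used.

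Samples were grouped by the labels (46 samples behind the tables, the brain excepted). The 6 F1 hybrid testes were not analysed here. Genes were joined by Ensembl identifier. The log2 ratio of 2 means was taken with a pseudocount of 0.1 TPM, and a gene was counted past 1.5-fold with a mean of at least 1 TPM. No test can be run on the means, and depth per library is unknown. The members and gene lists were chosen with earlier results of these data known. Named genes are the members, Tug1, the most correlated gene of each member (Pearson's r of log2(TPM + 0.1) over 8 wild-type tissue means) and, per list, up to 3 genes with the largest ratio past the limit. Some further list genes (Igf2, Dlk1, Dio3, Kcnq1, Tnnt3 and the genes of the plots) were named after their values were seen. Exons and overlaps were read from GENCODE vM21, and sequences from RefSeq tables. The counting step was tested on simulated data. Alternatives were no pseudocount, a pseudocount of 1 TPM, ratios centred on the median, no filter, a minimum of 5 TPM and a 2-fold limit. Software was Python 3.11.15, numpy 2.4.6, pandas 2.3.3 and matplotlib 3.10.9.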

Additional observations from a re-analysis of the deposited data

How the results depend on the processing

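Counts of members past the limit rest on the deposited means: no replicate could be left out and no spread computed. Of 50 entries in Tug1-/- against wild type, 4 were past the limit, and this count was 4 with no pseudocount and with centring, 3 with a pseudocount of 1 TPM and 5 with no filter. It was 2 with a minimum of 5 TPM, which leaves 39 entries and drops Snhg11 in liver and prostate, and 1 with a 2-fold limit, where Snhg11 in liver alone remained. Against Tug1-/- the 1 member of Tug1rescue testes was lost, leaving 0, with a pseudocount of 1 TPM and with a 2-fold limit. Against wild-type testes the count was 0 under all 6 alternatives. Of 15 recomputed ratios of single members, 13 stayed past the limit and 2 did not, both of Snhg11 with a pseudocount of 1 TPM: -0.48 in prostate and -0.52 in Tug1rescue against Tug1-/- testes. None changed sign. No paired analysis was possible because the tables hold group means only, so that replicate numbers of the labels cannot be joined to values.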
